A study of Rattus norvegicus with 142 samples.

Results

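Dusp1, Zfp36, Btg2, Atf3 and Cdkn1a were followed in the hippocampus and cortex of rat pups after hypoxic seizures. They were measured by 6 probe sets of the array, out of 24249 probe sets in all. The probe sets were chosen by their identifiers, which are 1368146_AT for Dusp1, 1387870_AT for Zfp36, 1386994_AT and 1386995_AT for Btg2, 1369268_AT for Atf3 and 1387391_AT for Cdkn1a. For Btg2 the first probe set is 1386994_AT and the second is 1386995_AT. All 6 had a value in every one of the 142 libraries, and no filter was applied in the tests reported, while a filter on low values, tried as an alternative, removed Atf3 and Cdkn1a. Present calls of the array were not used. The gene names came with the choice of identifiers, since no table pairing probe sets with genes was used here.

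Long-Evans pups of postnatal day 10 (P10) formed 3 treatment groups. HS+NBQX pups breathed 5% O2 for 15 min, which induced seizures, and then followed a schedule of 4 intraperitoneal doses of NBQX, an antagonist of AMPA-type glutamate receptors, within 48 h. The first dose came 30 min after hypoxia, and pups killed early did not live through the whole schedule. HS pups had the same hypoxia and vehicle (DMSO), and noHS pups had a sham exposure to normal air and vehicle. No group received NBQX without hypoxia, so HS+NBQX could be set against HS or against noHS but not against NBQX alone. Pups were killed at 1, 6, 12, 48 or 168 h, and the hippocampus gave 23 HS+NBQX, 23 HS and 24 noHS libraries, while the cortex gave 24 HS+NBQX, 23 HS and 25 noHS libraries. Each treatment and time had between 4 and 6 libraries per tissue. The libraries came from 74 pups of 11 litters, and 68 pups gave both tissues. Each litter was killed at a single time, so differences between times and between litters cannot be told apart. In whole tissue, fewer cells that hold a transcript and less transcript per cell cannot be told apart either.

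The proteins of these genes act at different steps of the early response of a cell to stress, growth factors or strong electrical activity. Dusp1 is a phosphatase that inactivates mitogen-activated protein kinases, and Zfp36, also called tristetraprolin, binds AU-rich messenger RNAs and speeds their decay. Btg2 promotes shortening of poly(A) tails and slows proliferation, Atf3 is a transcription factor of the ATF/CREB family, and Cdkn1a is an inhibitor of cyclin-dependent kinases and a known target of the Trp53 tumour suppressor. In neurons several of them are known as activity-induced genes whose messenger RNA rises and decays quickly.

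RefSeq promoters on the GRCr8 build, each covering 250 bases before and 50 bases after an annotated start, were at hand for 4 of the 5 genes, all but Atf3. On that build Zfp36 lies at chr1:92796628-92799108, Dusp1 at chr10:17184853-17187646, Btg2 at chr13:48083931-48087690, Atf3 at chr13:105274103-105331653 and Cdkn1a at chr20:7150820-7161373. The Cdkn1a promoter spanned chr20:7150682-7150981 and so was not set on the first base of the gene given here. Its motif counts refer to another start. The cyclic AMP response element (CRE), whose full letters are TGACGTCA, is the site at which CREB and ATF proteins bind, and it was searched on both strands. It occurred once in the promoter of Dusp1 and once in that of Btg2, against 1.83% of all 33469 promoters of the same length (612 of them), and in neither of the other 2 promoters. The sequences of the 2 promoters that held it are shown. Capitals mark full CREs and, for Dusp1, the one further TGACG core.
Dusp1 promoter, chr10:17184603-17184902, plus strand: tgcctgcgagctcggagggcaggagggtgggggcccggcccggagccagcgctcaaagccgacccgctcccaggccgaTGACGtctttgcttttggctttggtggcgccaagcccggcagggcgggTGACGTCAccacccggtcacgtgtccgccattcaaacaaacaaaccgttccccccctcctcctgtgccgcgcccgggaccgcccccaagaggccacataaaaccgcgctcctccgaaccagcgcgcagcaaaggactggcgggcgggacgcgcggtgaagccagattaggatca
Btg2 promoter, chr13:48087641-48087940, minus strand: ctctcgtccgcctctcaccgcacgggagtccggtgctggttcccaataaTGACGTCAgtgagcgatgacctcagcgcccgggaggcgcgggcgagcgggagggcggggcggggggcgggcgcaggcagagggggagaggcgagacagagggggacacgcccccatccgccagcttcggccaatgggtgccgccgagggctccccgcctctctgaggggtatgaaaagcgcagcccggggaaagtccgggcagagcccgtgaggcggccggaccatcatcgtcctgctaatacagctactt
The full CRE began at position -124 from the start of Dusp1 and at position -201 from the start of Btg2. The core TGACG, which is part of the CRE on either strand and so counts 2 times within it, was found 3 times for Dusp1, 2 times for Btg2, 1 time for Cdkn1a and 0 times for Zfp36, and 21.2% of all promoters held it. The AP-1 site TGANTCA was in 0 of the 4 promoters and in 7.33% of all. A match to the letters of the serum response element, ccataaaagg, was in the promoter of Zfp36, and 1.64% of all promoters held such a match. The hypoxia response core ACGTG was found in Dusp1 at a single place, the palindrome CACGTG, which reads the same on both strands (19.3% of all promoters held the core), and GCGTG 1 time each for Zfp36 and Btg2 (29.7% of all). A match of letters is a description of the sequence and says nothing of binding.

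Intensities are on the linear MAS5 scale of the array. Probe sets differ in how brightly they report their RNA, so levels are compared within a probe set and the position within each library only shows how dim a probe set was. Dusp1 ranged between 137 and 1430 over the 142 libraries, with a median of 487, and lay above the median probe set of every library. Zfp36 had a lowest value of 19.5, a median of 47.5 and a highest value of 104, and lay below the median of its library in 136 libraries. The first Btg2 probe set had values between 47.3 and 199 (median 83.55), and the second between 22.8 and 115 (median 61.4). The library medians themselves lay between 63.8 and 79.9, so both Btg2 probe sets were close to them. Atf3 (0.268 to 28.1, median 11.5) and Cdkn1a (0.395 to 17.1, median 1.675) lay below the library median in all 142 libraries, with median positions at percentile 21.0 and percentile 5.30. Values this dim carried a large spread. Within groups the SD on the log2 scale was 1.22 in hippocampus and 1.08 in cortex for Atf3, and 1.27 and 1.29 for Cdkn1a, against 0.20 and 0.28 for the first Btg2 probe set.

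**Figure D1:**
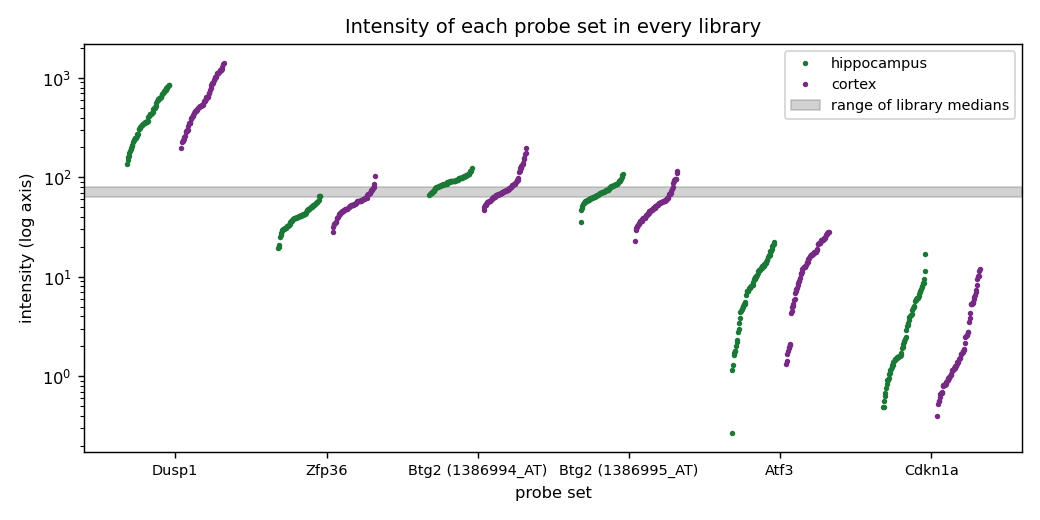
Intensity (log axis) of each of the 6 probe sets in every hippocampal and every cortical library, sorted by value within each tissue; the grey band is the range of the library medians, 63.8 to 79.9. Dusp1 lay above the band throughout, and Atf3 and Cdkn1a lay below it throughout.

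The first question was whether hypoxic seizures moved these genes. For all 6 probe sets in both tissues at 5 times, 0 of 60 differences between HS and noHS passed limma's test at a Benjamini-Hochberg adjusted p of 0.05, taken over all probe sets, and 4 had an unadjusted p under 0.05, all of them in cortex. In hippocampus the share of all probe sets called was 2.02%, 0.598%, 3.27%, 3.67% and 2.4% at 1, 6, 12, 48 and 168 h. In cortex it was 6.37%, 4.28%, 5.54%, 3.58% and 4.61%. Of the 60 differences 27 were above 0 and 33 below it, with a median of -0.029 on the log2 scale.

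Dusp1 did not pass the test at 1 h. In hippocampus at 1 h its intensities were 321, 151, 349, 195 and 367 in HS pups and 340, 137, 750, 363 and 250 in noHS pups. In cortex they were 533, 196, 478, 257 and 460 in HS pups and 511, 231, 847 and 423 in noHS pups. The groups overlapped in both tissues, and the highest value of each comparison belonged to the same noHS pup (replicate 3 in both tissues). The log2 difference HS minus noHS was -0.28 (SE 0.37, 95% interval -1.01 to 0.46, adjusted p = 0.81) in hippocampus and -0.34 (SE 0.37, 95% interval -1.08 to 0.40, adjusted p = 0.66) in cortex. Without that noHS pup's library the difference was 0.034 (adjusted p = 0.99) in hippocampus and -0.040 (adjusted p = 0.98) in cortex. Without noHS replicate 2, the lowest noHS value in both tissues, it was -0.58 in hippocampus and -0.66 in cortex, and neither was called. Dusp1 was lower in HS at 4 of 5 times and higher at 1 of 5 (168 h) in both tissues, and none of these 10 differences passed the test.

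The first Btg2 probe set gave the smallest p-values, and these were in cortex. At 1 h it read 87, 67.1, 58.4, 86.4 and 83.3 in HS cortex and 52.5, 49.8, 52.2 and 73.7 in noHS cortex. All 5 HS libraries lay above 3 of the 4 noHS libraries, and the groups overlapped through noHS replicate 4. The difference was 0.42 (SE 0.15, limma adjusted p = 0.068). It was called with quantile normalization (0.48, adjusted p = 0.046), with a filter on low values (0.42, 0.044) and without the libraries on the opposite tissue's plate (0.42, 0.04999). Without noHS replicate 4 it was 0.55 (adjusted p = 0.032), and without HS replicate 3 it was 0.52 (adjusted p = 0.034). Other settings moved it away from a call. HS replicates 4 and 5, at 86.4 and 83.3, came from a litter that held HS pups only, and without that litter the difference was 0.31 (adjusted p = 0.30). It was 0.31 (adjusted p = 0.24) with litter as a block, 0.44 (adjusted p = 0.18) with plate column as random block and 0.42 (adjusted p = 0.17) with all 3 treatments in the fit. At 6 h the direction was the other way, with 53.5, 72.2, 47.3 and 58.1 in HS cortex and a range between 57.4 and 85.6 (median 68.15) in 6 noHS libraries, a difference of -0.29 (adjusted p = 0.25). At 168 h the values were 154, 113, 137, 158 and 199 in HS cortex and 125, 116, 89.9, 123 and 129 in noHS cortex. HS libraries were higher on the whole and still overlapped the noHS libraries, with a difference of 0.37 (SE 0.14, adjusted p = 0.12). Without HS 168 h replicate 2, 1 of the 6 probe sets was called in cortex at 168 h, and it was this one. The second Btg2 probe set differed by 0.35 (SE 0.21, adjusted p = 0.37) at 1 h and by 0.37 (SE 0.20, adjusted p = 0.34) at 168 h in cortex.

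Averaged over the 5 times with equal weight, the first Btg2 probe set rose by 0.19 in HS cortex (SE 0.063, 95% interval 0.064 to 0.32, adjusted p = 0.018). It was the only 1 of the 6 called, where 29.1% of all probe sets were called. By litter, HS cortex was above noHS cortex in 7 of the 10 litters with both treatments and below it in 3, with a median of 0.22. The call was lost when all 3 treatments shared the fit (adjusted p = 0.066), with plate column as random block (adjusted p = 0.15) and without the libraries on the opposite tissue's plate (adjusted p = 0.051). The second probe set differed by 0.17 (SE 0.093, adjusted p = 0.18). In hippocampus the averaged differences of the 6 probe sets lay between -0.16 for Dusp1 and 0.19 for Atf3, and 0 of 6 were called, against 21.5% of all probe sets.

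**Figure D2:**
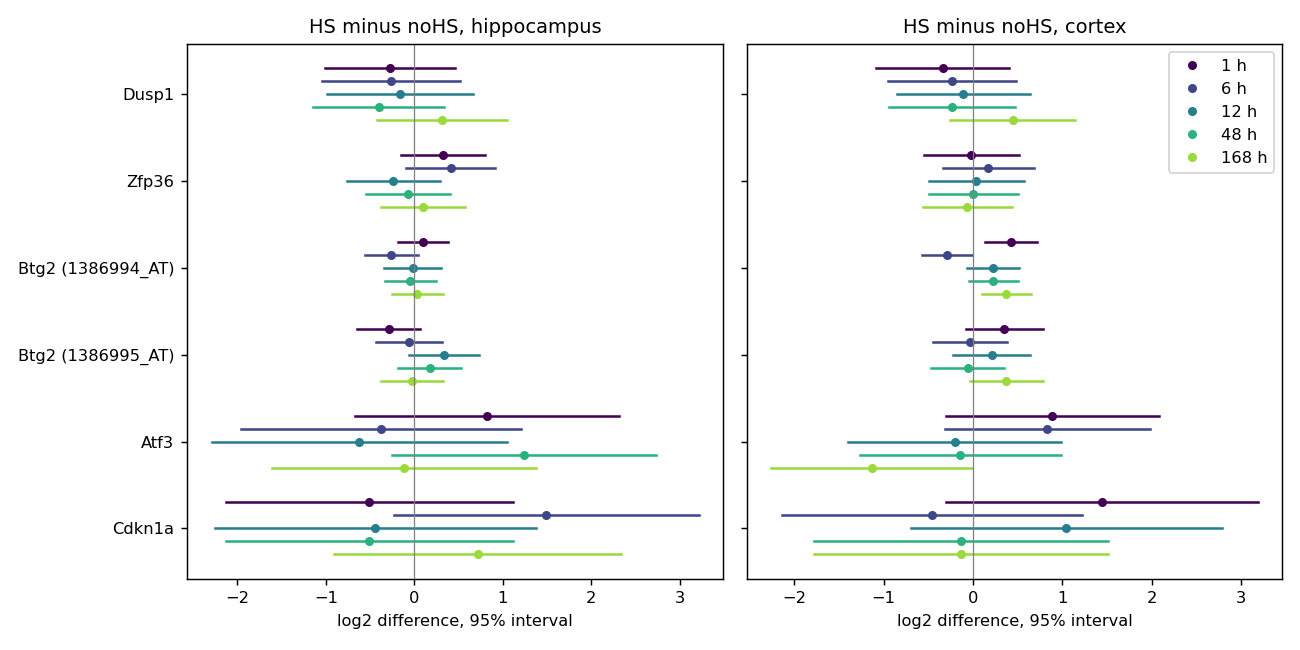
Log2 difference HS minus noHS for each probe set (rows) and time (colour), with its 95% interval, in hippocampus (left) and cortex (right). Intervals of Atf3 and Cdkn1a are the widest, and 4 intervals, all in cortex, are clear of 0, namely those of the first Btg2 probe set at 1 h (0.42), 6 h (-0.29) and 168 h (0.37) and that of Atf3 at 168 h (-1.13).

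Zfp36 in cortex at 1 h read 104, 48.1, 62.1, 31.6 and 80.1 in HS pups and 69.5, 78.4, 52.1 and 48.6 in noHS pups. The HS libraries held both the highest and the lowest value, and the difference was -0.019 (SE 0.26, adjusted p = 0.98). In hippocampus Zfp36 read 64.9, 47.2, 50.3, 39 and 41.3 in HS pups and 41.5, 30.1, 32.7, 58.7 and 33.2 in noHS pups at 1 h, a difference of 0.33 (SE 0.23, adjusted p = 0.58) with overlapping groups. For Atf3 in cortex at 1 h the values were 27.4, 5.07, 1.98, 17.7 and 4.28 in HS pups and 1.32, 5.38, 5.93 and 5.77 in noHS pups. The lowest library was a noHS one, at 1.32, and the HS libraries spread on both sides of the other noHS libraries. The difference was 0.89 (SE 0.59, limma adjusted p = 0.42). At 168 h Atf3 in cortex read 15.5, 22.1, 16.4, 1.41 and 9.12 in HS pups and 28, 24.6, 21.3, 17.7 and 14.2 in noHS pups. The groups overlapped, and the difference of -1.13 (SE 0.56, 95% interval -2.26 to -0.012) had an adjusted p of 0.28. Cdkn1a in cortex at 1 h read 1.21, 10.2, 0.879, 12 and 10.2 in HS pups and 1.82, 8.32, 0.395 and 0.962 in noHS pups, a difference of 1.44 (SE 0.87, adjusted p = 0.35). The groups overlapped here too.

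Whether the HS response at 1 h differed from its mean at the 4 later times was tested as an interaction. None of the 6 probe sets passed in either tissue. The share of all probe sets called was 0% in hippocampus, where 1192 probe sets had an unadjusted p under 0.05, and 0.128% in cortex. The first Btg2 probe set in cortex had a difference of 0.29 between the response at 1 h and later (SE 0.16, adjusted p = 0.60). The HS response at 1 h also did not separate the tissues for any of the 6 in within-pup differences of 5 HS and 4 noHS pups, a contrast in which 0% of all probe sets were called and 1393 had an unadjusted p under 0.05. Hippocampus minus cortex in that response was -0.023 (SE 0.18) for Dusp1 and -0.35 (SE 0.21, adjusted p = 0.88) for the first Btg2 probe set.

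The second question was whether NBQX after hypoxia moved these genes relative to HS. Of 60 differences HS+NBQX minus HS at single times, 0 were called and 2 had an unadjusted p under 0.05. The background was small as well. It was 0.375%, 0.0948%, 0.0289%, 0.033% and 0.0165% at 1, 6, 12, 48 and 168 h in hippocampus, and 0.00412%, 0.00412%, 0.206%, 0.00412% and 0.00825% in cortex. The 2 were the second Btg2 probe set in hippocampus at 12 h, with 85.8, 72.8, 46.6 and 56 in HS+NBQX pups and 95.2, 74.9, 91 and 105 in HS pups (difference -0.52, SE 0.18, adjusted p = 0.42), and Atf3 in cortex at 6 h, with 2.11, 1.91, 1.66, 9.69 and 15.5 in HS+NBQX pups and 10.9, 17.1, 15 and 23.5 in HS pups (difference -2.01, SE 0.79, adjusted p = 0.999). In both cases the groups overlapped.

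Dusp1 was lower in HS+NBQX than in HS at 4 of 5 times in each tissue. Averaged over times the difference was -0.24 (SE 0.15, 95% interval -0.54 to 0.06, adjusted p = 0.45) in hippocampus and -0.32 (SE 0.14, 95% interval -0.59 to -0.04, adjusted p = 0.21) in cortex. Within litters HS+NBQX pups lay below HS pups in 9 of 10 litters in hippocampus and in 8 of 10 litters in cortex. Neither average passed the adjustment, in which 4.22% and 2.68% of all probe sets were called in hippocampus and cortex. With litter as a block the average was -0.25 (limma adjusted p = 0.39) in hippocampus and -0.40 (adjusted p = 0.053) in cortex. With plate column as random block it was -0.24 (adjusted p = 0.91) and -0.31 (adjusted p = 0.999), and none of these was called. At 12 h in cortex the intensities were 258, 350, 648, 525 and 523 in HS+NBQX pups and 496, 461, 994 and 801 in HS pups. Their ranges overlapped, and the difference of -0.58 (SE 0.32) had an adjusted p of 0.45.

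Set against noHS, Dusp1 fell in HS+NBQX cortex by 0.41 on the log2 scale averaged over times (SE 0.16, 95% interval -0.73 to -0.10, adjusted p = 0.032). It was the only 1 of 6 called, where 39% of all probe sets were called. By litter, HS+NBQX cortex was below noHS cortex in 6 of 10 litters and above it in 4, with differences between -1.59 and 0.21. In hippocampus the difference was -0.40 (SE 0.17, adjusted p = 0.074), 0 of 6 were called, and the background was 30.5%. There HS+NBQX was below noHS in 8 of 10 litters and above it in 2. These comparisons share the noHS libraries with HS minus noHS and the HS+NBQX libraries with HS+NBQX minus HS, and Dusp1 in HS minus noHS averaged -0.10 (SE 0.16) in cortex and -0.16 (SE 0.17) in hippocampus. With litter as a block those HS minus noHS averages were -0.026 in cortex and -0.051 in hippocampus. The cortical call was lost with quantile normalization (-0.35, adjusted p = 0.080) and with plate column as random block (-0.44, adjusted p = 0.14). It was also lost on leaving out noHS 1 h replicate 3 (-0.35, adjusted p = 0.069), noHS 168 h replicate 1 (-0.38, 0.051), HS+NBQX 12 h replicate 1 (-0.37, 0.053), HS+NBQX 48 h replicate 4 (-0.37, 0.056) or HS+NBQX 168 h replicate 4 (-0.38, 0.051). The hippocampal difference was called with a common median for all arrays (-0.45, adjusted p = 0.038) and on leaving out any of 7 single libraries, namely noHS 1 h replicate 2, noHS 6 h replicate 2, noHS 168 h replicate 2 or 5, HS+NBQX 6 h replicate 5, HS+NBQX 12 h replicate 3 or HS+NBQX 48 h replicate 3, with values between -0.46 and -0.44.

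At single times 0 of 60 differences HS+NBQX minus noHS were called and 2 had an unadjusted p under 0.05. The share of all probe sets called was 6.09%, 5.04%, 8.44%, 10.3% and 4.68% at 1, 6, 12, 48 and 168 h in hippocampus, and 8.61%, 12.1%, 20.9%, 9.89% and 5.63% in cortex. Dusp1 in cortex at 6 h read 292, 356, 382, 229 and 242 in HS+NBQX pups, while the 6 noHS libraries ranged between 284 and 1120 with a median of 476. The ranges overlapped, and the difference was -0.72 (SE 0.33, adjusted p = 0.16). Among the 180 pairs of treatment groups of the 6 probe sets, 1 did not overlap, while over all probe sets 6.14% of such pairs did not. It was Atf3 in cortex at 1 h, a comparison in which 5.65% of all probe sets had every HS+NBQX library above every noHS library. Its values were 24, 11.9, 16.6 and 13.6 in HS+NBQX pups and 1.32, 5.38, 5.93 and 5.77 in noHS pups. The difference was 2.01 (SE 0.69, adjusted p = 0.057) and did not pass the test. It passed with quantile normalization (adjusted p = 0.046), with litter as a block (0.037), without the libraries on the opposite tissue's plate (0.031) and without HS+NBQX 6 h replicate 5 (0.045), HS+NBQX 12 h replicate 1 (0.029) or HS+NBQX 168 h replicate 4 (0.031). Without noHS 1 h replicate 1, at 1.32, the difference was 1.49 (adjusted p = 0.231).

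**Figure D3:**
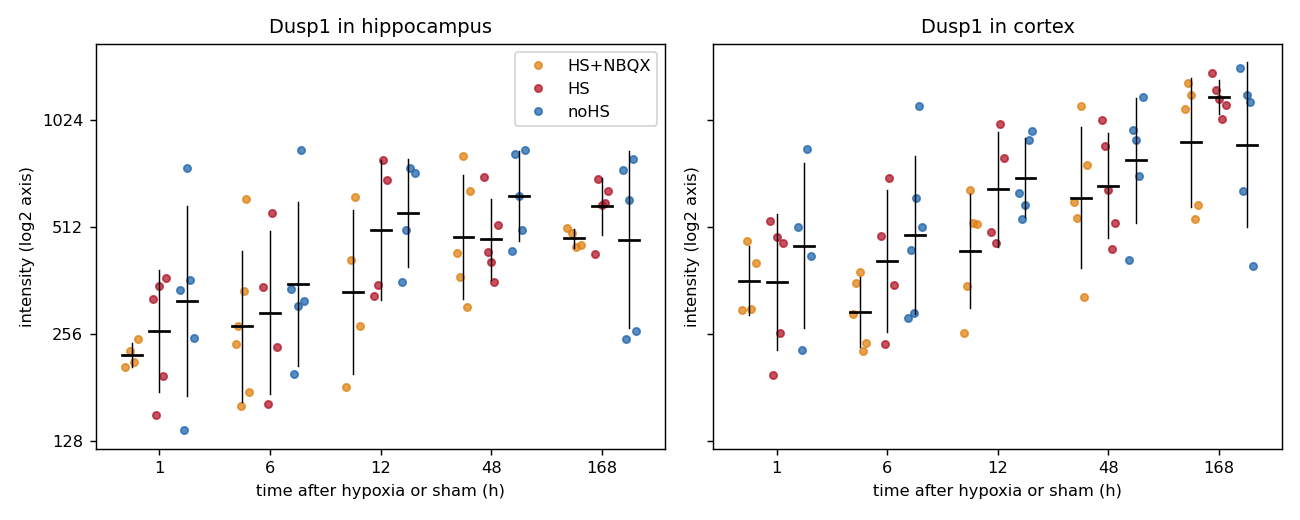
Dusp1 intensity (log2 axis) in hippocampus (left) and cortex (right) by time and treatment; each point is a library, bars are group means on the log2 scale and lines are 1 SD. Points of the 3 treatments overlap at every time, and all 5 HS cortices at 168 h lie between 1030 and 1390, above every HS cortex at 1 h.

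The next question was how the genes changed over the week after P10. The comparisons in HS and HS+NBQX were added after the data had been seen. Pups killed at 168 h came from litters 3 and 4, and those killed at 1 h from litters 1, 10 and 11. The fits took littermates as independent, so the p-values over the week rest on the spread between pups. They do not measure the spread between litters. In cortex 9 of 18 differences between 168 h and 1 h passed the test (6 probe sets in 3 treatments), all of them higher at 168 h, and in hippocampus 2 of 18 passed, both higher. The share of all probe sets called was 26.3% in HS+NBQX, 29.4% in HS and 25.8% in noHS cortex, and 22.4%, 24.9% and 17.3% in the same treatments of hippocampus. The calls in cortex were in Dusp1, both Btg2 probe sets and Atf3. Those in hippocampus were in Dusp1 alone. The share of all probe sets with every 168 h library above every 1 h library was 10.2% in HS+NBQX, 9.22% in HS and 8.68% in noHS cortex, and 9.45%, 8.15% and 7.49% in the same treatments of hippocampus. Of the 6 members 2, 3 and 3 did so in cortex and 1, 1 and 0 in hippocampus.

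Dusp1 in cortex at 168 h read 1100, 1300, 1200, 537 and 588 in HS+NBQX pups, 1390, 1240, 1170, 1030 and 1130 in HS pups and 1430, 645, 1200, 1150 and 397 in noHS pups. At 1 h the HS+NBQX libraries had 299, 467, 301 and 406, and the HS and noHS values are given above. In HS and in HS+NBQX every library at 168 h was above every library at 1 h, and in noHS the ranges overlapped. The log2 difference 168 h minus 1 h was 1.29 in HS+NBQX (SE 0.29, adjusted p = 0.0013), 1.73 in HS (SE 0.28, adjusted p = 3.1e-05) and 0.94 in noHS (SE 0.39, adjusted p = 0.075). The noHS difference was called on leaving out noHS 168 h replicate 5, at 397 (1.23, adjusted p = 0.017), noHS 1 h replicate 3, at 847 (1.24, 0.025), or noHS 6 h replicate 5 (0.94, 0.048), and it was 0.62 (0.30) without noHS 1 h replicate 2, at 231. It was also called with a common median (1.04, 0.045), with all 3 treatments in the fit (0.94, 0.045) and without the libraries on the opposite tissue's plate (1.19, 0.034). Whether the change over the week differed between treatments was not tested.

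In hippocampus at 168 h Dusp1 read 509, 492, 449 and 454 in HS+NBQX pups, 429, 696, 588, 599 and 647 in HS pups and 740, 247, 611, 795 and 260 in noHS pups. At 1 h the HS+NBQX values were 206, 229, 214 and 247. The 168 h libraries were all above the 1 h libraries in both hypoxic groups and overlapped them in noHS. The differences were 1.09 (SE 0.33, adjusted p = 0.018) in HS+NBQX, 1.16 (SE 0.29, adjusted p = 0.0033) in HS and 0.57 (SE 0.39, adjusted p = 0.35) in noHS. The noHS value was 0.27 without 1 h replicate 2, at 137, and 0.88 without 1 h replicate 3, at 750, and was called in neither case. Without the libraries on the opposite tissue's plate, which belong to 1 of the 2 litters killed at 168 h, the HS value was 1.07 with an adjusted p of 0.080. Without a mean-variance trend the HS+NBQX difference was not called (adjusted p = 0.050).

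Btg2 rose with time in cortex by both probe sets and in all 3 treatments. For the first probe set at 168 h the values were 174, 173, 138, 57.2 and 134 in HS+NBQX cortex, beside the HS and noHS values above, and at 1 h they were 57, 74.9, 81.9 and 75.4 in HS+NBQX cortex. In HS and noHS all libraries at 168 h lay above all those at 1 h, and in HS+NBQX replicate 4 at 168 h, with 57.2, lay among the 1 h values. The differences were 0.82 (SE 0.23, adjusted p = 0.0092) in HS+NBQX, 0.99 (SE 0.15, adjusted p = 1.6e-05) in HS and 1.04 (SE 0.13, adjusted p = 1e-06) in noHS. The second probe set at 168 h read 92.9, 115, 67.8, 57.2 and 95.6 in HS+NBQX cortex, 94.8, 72.2, 95.8, 87.3 and 111 in HS cortex and 63.6, 67.6, 61.5, 96.9 and 68.2 in noHS cortex. At 1 h it read 56.2, 39.2, 41.6 and 46.3 in HS+NBQX cortex, 60.4, 47.1, 55.5, 53.9 and 55.8 in HS cortex and 49, 51.4, 34.5 and 38.3 in noHS cortex. No 168 h library reached down to the 1 h libraries of its treatment. The differences were 0.87 (SE 0.27, adjusted p = 0.017), 0.75 (SE 0.17, adjusted p = 0.0013) and 0.72 (SE 0.24, adjusted p = 0.025) in HS+NBQX, HS and noHS cortex.

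At the times between, the first Btg2 probe set stayed closer to its 1 h level. In noHS cortex the first probe set differed from 1 h by 0.31, 0.21 and 0.33 at 6, 12 and 48 h, none of them called, and by 1.04 at 168 h. In hippocampus its 168 h minus 1 h differences were -0.037 (SE 0.14) in HS+NBQX, 0.070 (SE 0.15) in HS and 0.13 (SE 0.14) in noHS, with intervals inside -0.32 and 0.41, and libraries at 168 h overlapped those at 1 h in every treatment. The first probe set's calls in cortex held with plate column as random block (adjusted p = 0.029 in HS+NBQX, 0.00047 in HS and 9.8e-06 in noHS). Those of the second did not all hold. With that block its adjusted p was 0.11 in HS+NBQX and 0.082 in noHS, and without the libraries on the opposite tissue's plate it was 0.065 in HS and 0.12 in noHS. The call of the second probe set was also lost without HS+NBQX 1 h replicate 2 (0.80, adjusted p = 0.057) or HS+NBQX 168 h replicate 2 (0.76, 0.051), and in noHS without 1 h replicate 3 (0.62, 0.086), 1 h replicate 4 (0.67, 0.072) or 168 h replicate 4 (0.61, 0.068).

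**Figure D4:**
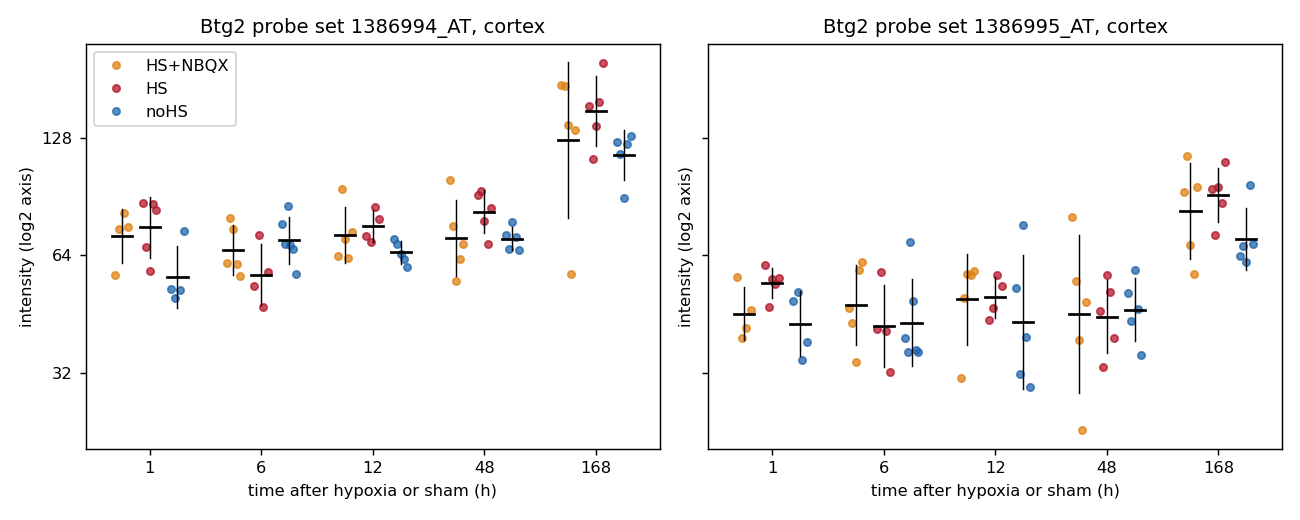
Intensity (log2 axis) of both Btg2 probe sets in cortex by time and treatment; each point is a library, bars are group means on the log2 scale and lines are 1 SD. Within each treatment the 168 h libraries stand above the 1 h libraries except for 1 HS+NBQX library of the first probe set, at 57.2.

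Atf3 was higher at 12, 48 and 168 h than at 1 h in noHS cortex. Its probe set was so dim that the filter on low values left it out of the test. The sizes of its differences therefore rest on intensities far below the library medians. At 1 h it read 1.32, 5.38, 5.93 and 5.77. The values were 24.3, 10.7, 16.2, 17.7 and 14.2 after 12 h, while those after 48 h were 9.12, 11.1, 21.9, 17.6 and 16.9. After 168 h they were 28, 24.6, 21.3, 17.7 and 14.2. All libraries at 12, 48 and 168 h lay above the 4 libraries at 1 h. Over all probe sets 2.05% did so at 12 h and 3.84% at 48 h. At 6 h the 6 noHS libraries of Atf3 ranged between 4.53 and 13.1 and overlapped those at 1 h. The differences from 1 h were 2.02 at 12 h (SE 0.41, adjusted p = 0.024, where 0.528% of all probe sets were called), 1.88 at 48 h (SE 0.41, adjusted p = 0.011, where 2.86% were called) and 2.38 at 168 h (SE 0.41, adjusted p = 5.9e-05). In HS+NBQX cortex the 168 h minus 1 h difference was -0.19 (SE 0.78, adjusted p = 0.89) and in HS cortex it was 0.36 (SE 0.66, adjusted p = 0.74); the difference between treatments was not tested. The calls at 12 and 48 h were lost with all 3 treatments in the fit (adjusted p = 0.14 and 0.12) and with plate column as random block (0.16 and 0.056). At 12 h the call was lost without noHS 1 h replicate 1 (1.49, adjusted p = 0.0998), 1 h replicate 4 (2.20, 0.053), 12 h replicate 1 (1.87, 0.088) or 12 h replicate 4 (1.99, 0.065), and at 48 h without 1 h replicate 1 (1.36, 0.059). Zfp36 and Cdkn1a passed in none of the 6 comparisons of 168 h with 1 h, and the Zfp36 differences lay between -0.25 in HS cortex and 0.30 in noHS hippocampus.

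In 23 noHS pups with both tissues, 5 of 6 probe sets were called in the within-pup difference hippocampus minus cortex, against 50.5% of all probe sets. The array plate changed with the tissue, and only in 1 litter killed at 168 h were the plates exchanged, so outside that litter tissue and plate cannot be told apart. Averaged over times, Dusp1, Zfp36 and Atf3 were lower in hippocampus, and Btg2 was higher there by both probe sets, and the 5 calls held without the exchanged libraries. The Dusp1 difference was -0.54 (SE 0.056, adjusted p = 1.7e-08), with lower hippocampal values in 22 of 23 noHS pups. Zfp36 differed by -0.38 (SE 0.11, adjusted p = 0.0044) and was lower in hippocampus in 19 of 23. The Btg2 differences were 0.35 (SE 0.064, adjusted p = 6.7e-05) for the first probe set, higher in hippocampus in 17 of 23, and 0.52 (SE 0.090, adjusted p = 3.5e-05) for the second, higher in 20 of 23. Atf3 differed by -0.76 (SE 0.26, adjusted p = 0.015), lower in 18 of 23, and that call was lost with quantile normalization (-0.55, adjusted p = 0.076). Cdkn1a differed by 0.69 (SE 0.37, adjusted p = 0.12), higher in hippocampus in 14 of 23. It was called with quantile normalization (1.09, adjusted p = 0.017) and on leaving out noHS 1 h replicate 2 (0.92, adjusted p = 0.035).

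The averages do not describe every time. Before 168 h the first Btg2 probe set was higher in hippocampus in 17 of 18 noHS pups, with a mean difference of 0.50 ± 0.30 (SD). At 168 h it was lower there in 5 of 5, with a mean of -0.28 ± 0.16 (SD), and the pups had 85.1, 97.7, 78.6, 113 and 106 in hippocampus and 125, 116, 89.9, 123 and 129 in cortex. Atf3 was higher in hippocampus at 1 h in 3 of 4 noHS pups, with a mean of 0.42 ± 1.18 (SD). Its means were -0.42, -0.94, -2.07 and -0.80 at 6, 12, 48 and 168 h. The mean at 48 h had an SD of 2.44, with a hippocampal library at 0.268. For both genes the difference between times was not tested.

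At 168 h the litter with exchanged plates also differed from the other litter for 2 members. In its 2 noHS pups the second Btg2 probe set had 57.2 and 35.6 in hippocampus and 96.9 and 68.2 in cortex, while the 3 pups of the other litter had 85, 77.2 and 70 in hippocampus and 63.6, 67.6 and 61.5 in cortex. Zfp36 had 65.4 and 46.7 in hippocampus and 47.5 and 41.9 in cortex in the litter with exchanged plates, against 48.2, 36 and 42.5 in hippocampus and 74.1, 45.6 and 60.3 in cortex in the other. The direction was opposite between the litters for both, and the part of the plate in this was not tested. Dusp1, Atf3 and the first Btg2 probe set were lower in hippocampus in all 5 pups of both litters.

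Over the 3 treatments Dusp1 was lower in hippocampus in 64 of 68 pups. The exceptions were a noHS pup at 48 h with 438 in hippocampus and 414 in cortex, and 3 HS+NBQX pups. Of these, 2 were littermates at 6 h, with 339 in hippocampus and 229 in cortex for one and 614 and 242 for the other, and the third was a pup at 12 h with 414 and 350. All 23 HS pups had the lower value in hippocampus.

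Dusp1 varied between pups of a group more than nearly all probe sets of like brightness. Its SD within groups was 0.61 on the log2 scale in hippocampus and 0.57 in cortex, while the median SD of the 2425 probe sets of like mean intensity was 0.17 and 0.15, which placed Dusp1 at percentile 99.8 in each tissue. The other 5 probe sets lay between percentile 19.8 and percentile 92.0 of theirs. Littermates of a group differed as well. At 6 h the noHS pups of litter 9 had 306, 844 and 316 in hippocampus and 617, 1120 and 512 in cortex, in the same order of pups.

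The deviation of a pup from its group mean was shared by its tissues. After group means had been removed, the log2 values of Dusp1 in hippocampus and cortex correlated over 68 pups with a Pearson r of 0.76 and a Spearman rho of 0.73, and r was 0.72 without the 2 farthest pups. With litter means removed as well r was 0.85. Over all 24249 probe sets the median r was 0.0032, 364 (1.5%) exceeded 0.5, and Dusp1 ranked 49. For the other 5 members r lay between -0.045 and 0.13. These correlations are a description, given without a p-value, and the 2 libraries of a pup share its litter and its killing.

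**Figure D5:**
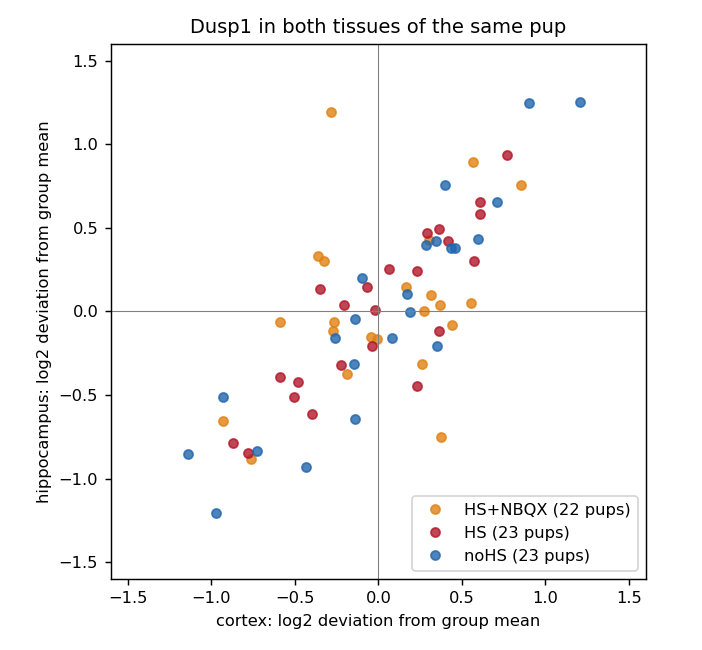
Deviation of Dusp1 from the mean of its treatment and time group, on the log2 scale, in hippocampus (vertical) against cortex (horizontal) of the same 68 pups. Most points lie along the diagonal, with r of 0.76, and the 3 points farthest from it are HS+NBQX pups at 6 h.

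By treatment r was 0.38 in 22 HS+NBQX pups, 0.87 in 23 HS pups and 0.91 in 23 noHS pups, and the difference between these was not tested. By time r was 0.94 at 1 h, 0.57 at 6 h, 0.83 at 12 h, 0.88 at 48 h and 0.71 at 168 h. The signs of the deviations matched in 52 of 68 pups. A noHS pup at 1 h had 750 in hippocampus and 847 in cortex, and its littermate of the same group had 363 and 423. At 168 h a noHS pup had 260 and 397, and its littermate had 795 and 1150. Library brightness moved little with Dusp1, whose deviations correlated with the library medians at 0.032 in hippocampus and 0.13 in cortex.

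No other probe set followed Dusp1 closely through these deviations. Among the other 24248 the highest correlation with Dusp1 within groups was 0.46 in hippocampus and 0.53 in cortex, and the highest that was reached in both tissues was 0.35. With Zfp36 it was 0.012 in hippocampus and 0.35 in cortex, with Atf3 it was 0.062 and 0.13, and with the first Btg2 probe set it was -0.099 and 0.051.

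Over the 30 means of treatment, time and tissue, the 3 probe sets most like Dusp1 had Pearson correlations between 0.88 and 0.90, and those most like the second Btg2 probe set had correlations of 0.91. For Atf3 and Cdkn1a the highest values were 0.73 and 0.67. None of these probe sets could be named by a gene here. The means share the tissue difference and the week of development, so such values are a description. The 2 Btg2 probe sets correlated at 0.81 over the 30 means, and within groups at 0.015 in hippocampus and 0.36 in cortex.

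The number of seizures of a hypoxic pup bore no called relation to any of the 6 probe sets. No count was given for HS 1 h replicates 4 and 5, which were left out of the slope. In the slope on seizure count, fitted within treatment and time groups, 0% of all probe sets were called in hippocampus (934 had an unadjusted p under 0.05) and 0% in cortex (1135 did). Dusp1 in hippocampus had a slope of -0.063 on the log2 scale per seizure (SE 0.030), with an unadjusted p under 0.05 that did not pass the adjustment, and its slope in cortex was -0.023 (SE 0.029, adjusted p = 0.998).

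Signatures of 50 probe sets per tissue, chosen on noHS libraries, placed 0 of the 93 HS+NBQX and HS libraries against their tissue label. Markers of named cell types could not be checked without gene names. Of the 142 libraries, 13 from a litter killed at 168 h were hybridised on the opposite tissue's plate, and each plate column held libraries of 1 treatment. Treatment and plate column therefore cannot be fully told apart, and the values with the column as a random block are given beside the calls it changed.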

How the data were processed

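Whole hippocampus and cortex of Long-Evans pups were profiled on Affymetrix HT Rat Focus plates. The deposited values are linear intensities of 24249 probe sets, which the authors computed with MAS5 and rescaled linearly so that the 75th percentile of present calls was common to all arrays. The submitters' processing notes name MAS5 without a version. Present calls were not used here, and the number of arrays limits the precision.

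Intensities were taken to log2, after 97 values at or below 0 in the whole table were set to the smallest positive intensity, 0.0526. limma 3.58.1 (R 4.3.3) was fitted across all probe sets (lmFit, eBayes with trend), with a mean per treatment and time in each tissue, and with Benjamini-Hochberg adjustment at 0.05. Each treatment comparison used the libraries of its 2 treatments. Tissues were compared within pups. Python 3.11.15 with pandas 2.3.3, numpy 2.4.6, scipy 1.17.1 and matplotlib 3.10.9 served for descriptions and plots. The fits were run on simulated data with known changes and independent noise per library. That simulation held no litter, pup or plate structure, so it does not show how the fits behave where these matter.

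The members and lists were chosen with earlier results of these data known. All 6 probe sets were to be named, and others only where they map to 1 gene. No table of probe sets and genes was used here, so gene lists and cell type markers could not be counted. Alternatives were quantile normalization, a common median, a pseudocount of 32, a filter below percentile 40 of mean intensity, eBayes without trend, all 3 treatments in one fit, replicate, litter and plate column blocks, left-out libraries and litters, and the tests the methods name, run on linear intensities although the methods do not state the scale of their analysis of variance.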

Additional observations from a re-analysis of the deposited data

Results flagged for a closer look

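On the log2 scale, the highest or lowest library stood apart from the rest by Dixon's criterion in 11 of 180 groups (6 probe sets in 30 groups of libraries). Chance meets this criterion in about 1 in 20 groups. The intensities given here are linear. Of the cortical HS+NBQX libraries, 168 h replicate 4 stood apart for the first Btg2 probe set (57.2, others 134 to 174) and for Atf3 (2.08, others 17.5 to 28.1), and it also had the lowest Dusp1 (537) of its group. Similarly, 12 h replicate 1 stood apart for the second Btg2 probe set (31, others 49.7 to 58.4) and for Atf3 (1.8, others 18.5 to 27), and had the lowest Dusp1 (258).

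In HS+NBQX hippocampus at 1 h, Zfp36 was 24.9 in replicate 4 and between 50.6 and 54.1 in the others. In noHS cortex at 1 h, the first Btg2 probe set was 73.7 in replicate 4 (others 49.8 to 52.5) and Atf3 was 1.32 in replicate 1 (others 5.38 to 5.93). In noHS cortex at 168 h, the second Btg2 probe set was 96.9 in replicate 4 (others 61.5 to 68.2). In HS hippocampus the second Btg2 probe set was 55.7 in 48 h replicate 5 (others 82.9 to 92.1), and Atf3 was 2.01 in 168 h replicate 2 (others 12.3 to 20.4). In noHS hippocampus at 12 h, Atf3 was 3.45 in replicate 4 (others 12.3 to 13.4).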

How the results depend on the processing

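Of 322 values of 35 member differences under alternative settings, 295 kept their direction and side of the threshold and 0 changed direction. The low-value filter, eBayes without trend and all 3 treatments in one fit leave the difference itself as it is. Under these settings the direction could not change. Of 1071 fits without 1 library or pup, 32 changed the call or direction. Many of these fits left out a library of a time that the difference did not use. Such a fit could change the adjusted p but not the difference. The share of 32 in 1071 therefore does not measure how fragile the calls were. The Dusp1 difference HS minus noHS in hippocampus at 1 h ranged between -0.58 and 0.034 on leaving out libraries, turning to 0.034 without noHS replicate 3. Of the 6 members, the number called in HS minus noHS in cortex at 1 h was 1 instead of 0 with quantile normalization, the low-value filter or without the libraries on the opposite tissue's plate, and averaged over times 0 instead of 1 with all 3 treatments in one fit, the plate column block or without those libraries. For HS+NBQX minus noHS in cortex averaged over times it was 0 with quantile normalization or the plate column block and 2 without those libraries, instead of 1. At 1 h it was 1 instead of 0 with quantile normalization, the litter block or without those libraries. In hippocampus the average gave 1 instead of 0 with a common median. For 168 h minus 1 h in hippocampus it was 0 instead of 1 in HS without those libraries and in HS+NBQX without trend. For noHS cortex at 12 and 48 h against 1 h it was 0 instead of 1 with the filter, which removed Atf3, with all 3 treatments and with the plate column block. Without single libraries these counts lay between 0 and 1 for HS+NBQX minus noHS averaged (both tissues) and at 1 h in cortex, for HS minus noHS in cortex at 1 h and 168 h, and for noHS cortex at 12 and 48 h. The cause of these changes was not tested.

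Over all probe sets, in 46 of 50 comparisons some alternative gave fewer calls, and the fewest came with the plate column block in 34, without the libraries on the opposite tissue's plate in 6 and with other settings in the rest. The lowest count was over 1.5 times below the reported one in 38. Without those libraries, 168 h minus 1 h in hippocampus had 3500 calls against 6031 in HS and 2575 against 4196 in noHS, and HS minus noHS at 168 h had 136 against 583 in hippocampus and 350 against 1119 in cortex. With the plate column block, averaged over times, HS+NBQX minus HS had 203 calls against 1023 in hippocampus, and 3 against 649 in cortex, and HS minus noHS had 2773 against 5220 in hippocampus and 3526 against 7062 in cortex. At 1 h HS minus noHS had 152 against 489 in hippocampus and 376 against 1544 in cortex. Replicate numbers did not pair the samples (median correlations of same-numbered deviations -0.0093 to 0.022). With the replicate block Dusp1 in HS+NBQX minus noHS cortex was -0.41 (limma adjusted p = 0.038) and the first Btg2 probe set in HS minus noHS cortex 0.18 (adjusted p = 0.026), and no member call changed. A two-way analysis of variance with the factors the methods name, run here on linear intensities since the methods do not state the scale, gave HS minus noHS 5180 calls in hippocampus and 7025 in cortex at an adjusted p of 0.05, and 9681 and 11622 at 0.25, counts that cannot be read as those of the study's own test. The first Btg2 probe set in cortex had an adjusted p of 0.013. The methods' t-test at 1 h gave 3748 probe sets in hippocampus and 4748 in cortex at an unadjusted 0.05, and 77 and 418 after Benjamini-Hochberg adjustment, and none of the 6 probe sets was among the calls that passed the adjustment. Dim probe sets limit Atf3 and Cdkn1a.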
